A study of Mus musculus with 8 samples.

Results

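Visceral endoderm is known for taking up maternal nutrients and for secreting carrier proteins, and 9 genes of these functions were followed in mouse embryonic stem cells (ESCs): Lrp2, Cubn, Amn, Apoe, Apoa1, Apob, Ttr, Afp and Rbp4. The genes were chosen by name, with earlier results of these data known. They were found by the gene symbols of their Ensembl identifiers, as 9 of 55335 genes in the counts. RNA-seq of polyadenylated RNA was done on E14 ESCs, a mouse ESC line, in 4 groups of 2 biological replicates. The groups were a negative control shRNA (control), and knockdowns of Sox2 (Sox2-KD), of Hnrnpk (labelled hnRNPK-KD) and of Cdk9 (Cdk9-KD). Cells of every group carried a lentiviral shRNA, were selected with puromycin and were kept with leukemia inhibitory factor and the inhibitors CHIR99021 and PD0325901, so that the 8 libraries hold no uninfected group. Which shRNA of a gene each library received is not given in the sources used here. The comparisons ask whether these genes differ in cells cultured as ESCs with an shRNA against each regulator, whose remaining mRNA is given below. The libraries are bulk RNA, in which fewer cells of a type and less RNA per cell cannot be told apart.

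The visceral endoderm covers the early mouse embryo and feeds it before the placenta works. Its apical surface carries megalin and the complex of cubilin and amnionless, which bind vitamin carriers, lipoproteins and other proteins and bring them into the cell through clathrin-coated pits. The same cells secrete apolipoproteins and the carriers of retinol and thyroid hormone, as the liver does later, and alpha-fetoprotein, transthyretin and apolipoprotein A1 are used as markers of this tissue. Of the 9 genes, Lrp2 encodes megalin, Cubn cubilin, and Amn amnionless, the membrane anchor of cubilin.

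Upstream sequence is shown for 3 genes, for Lrp2 because it was the member that differed between Sox2-KD and control, for Apoe because it was the abundant member, and for Cubn as the partner receptor that stayed near the count floor. The sequences are RefSeq promoter windows of GRCm38.p6, read 5′ to 3′ on the strand of the gene and ended before the first transcribed base of GENCODE or RefSeq. Capitals mark matches to the motifs that were searched on both strands, which were CATTGT for SOX factors, AGATAA for GATA factors, TGTTTAC for FOXA factors and the palindromic motif of HNF1. The stretch of Lrp2 is chr2:69586066-69586279 on the − strand, that of Apoe chr7:19699189-19699438 on the − strand and that of Cubn chr2:13491877-13492126 on the − strand.
Lrp2: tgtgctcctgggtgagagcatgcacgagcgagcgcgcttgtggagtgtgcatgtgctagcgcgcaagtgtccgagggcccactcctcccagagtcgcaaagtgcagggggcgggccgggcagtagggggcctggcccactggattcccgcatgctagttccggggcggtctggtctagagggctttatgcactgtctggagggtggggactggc
Apoe: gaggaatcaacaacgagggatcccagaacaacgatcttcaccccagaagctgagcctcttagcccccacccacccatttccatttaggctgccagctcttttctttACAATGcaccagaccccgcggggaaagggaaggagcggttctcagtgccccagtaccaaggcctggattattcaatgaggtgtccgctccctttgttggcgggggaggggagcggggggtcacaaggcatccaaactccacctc
Cubn: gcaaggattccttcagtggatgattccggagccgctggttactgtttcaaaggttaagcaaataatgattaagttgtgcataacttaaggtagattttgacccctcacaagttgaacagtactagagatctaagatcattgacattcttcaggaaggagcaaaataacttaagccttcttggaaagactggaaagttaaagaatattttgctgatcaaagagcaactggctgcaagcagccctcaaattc
The stretch of Apoe held 1 SOX match, read as ACAATG, that is on the opposite strand, and those of Lrp2 and Cubn held no match to any of the 4 motifs. A SOX match was found in 10.7% of the 32851 RefSeq windows of 250 upstream bases, a GATA match in 9.99%, a FOXA match in 3.17% and an HNF1 match in 0.00913%. Rbp4 held 1 FOXA match, and apart from Apoe the other members with a window (8 of 9 genes had one) held none. Over the 250 upstream bases, GC content was 66.4% for Lrp2 with 18 CpG, 57.2% for Apoe with 8 and 39.6% for Cubn with 2, against medians of 52.4% and 6 over all windows. A match describes letters and not a bound site.

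Counts per library were similar, between 16709201 and 17719366 in total, with 5.57% to 6.16% in the 10 most abundant genes, and chi-square per gene between the replicates of a group was 17.2 to 31.3, above the counting noise in all 4 groups. Values are given as CPM after TMM normalization, in which each count is scaled to its library's size times a TMM factor (0.968 to 1.05). The count floor was set at 3 counts in a library, which is 0.165 to 0.177 CPM. Of the targeted genes, Sox2 was at 412 and 530 CPM in control and at 320 and 284 CPM in Sox2-KD E14 ESCs. Cdk9 was at 109 and 129 CPM in control and at 73.1 and 53.2 CPM in Cdk9-KD E14 ESCs (log2FC -0.91, adjusted p = 0.0985). Hnrnpk was at 1094 and 1131 CPM in control and at 697 and 1144 CPM in the hnRNPK-KD-labelled libraries, so that its mRNA was lower in replicate 1 alone and every direction given for this group rests on that label.

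The 9 genes fell far apart in level. Per kilobase of exon in control E14 ESCs, Apoe stood at 208 and 179 CPM per kb, above 98.8% of the 16504 genes tested, while Lrp2 stood at 0.563 and 0.624 CPM per kb, above 19.7%. Amn (0.367 and 0.435 CPM per kb) and Rbp4 (0.335 and 0.469 CPM per kb) each lay above 14.7%, and Apob (0.061 and 0.016 CPM per kb) above 0.788%. Ttr and Afp were at or under 3 counts in all 8 libraries, with at most 1 count of Ttr and 3 of Afp. Apoa1 was at or under 3 counts in 7 of 8 libraries, Cubn in 4 of 8, and Apob and Rbp4 in 1 each, while Lrp2, Amn and Apoe were above 3 counts in every library. The filter on low counts left 5 members to test (Lrp2, Amn, Apoe, Apob and Rbp4), and Cubn, Apoa1, Ttr and Afp were not tested. The marker genes Afp, Ttr and Apoa1 were thus at or near 0 in these cultures, and visceral endoderm names where the 9 genes are known from and not the cells sequenced.

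**Figure D1:**
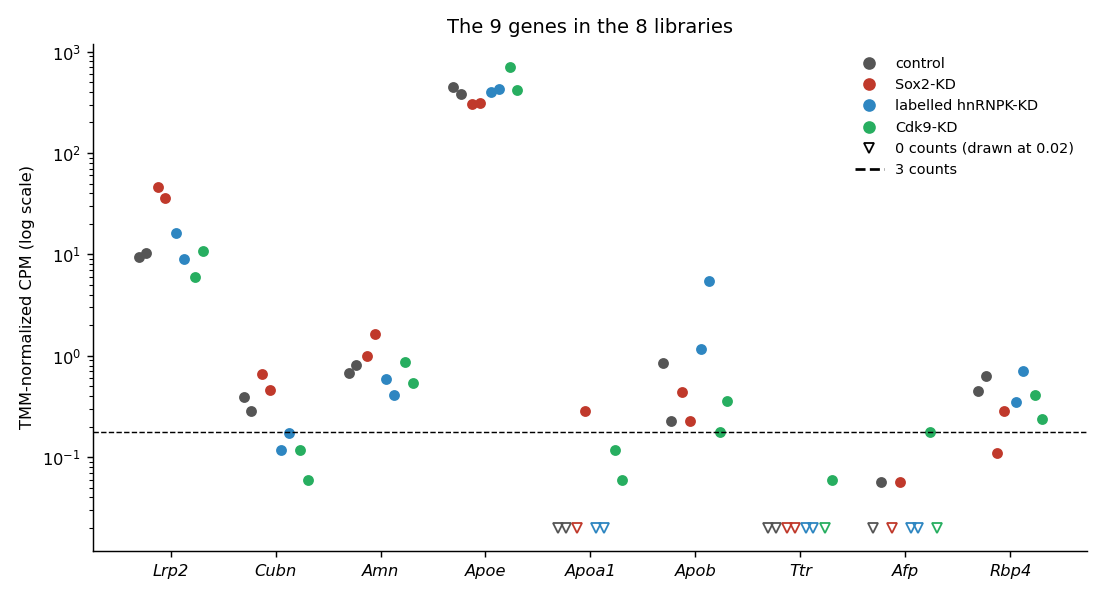
TMM-normalized CPM on a log axis for the 9 genes in the 8 libraries, with 1 point per library coloured by group, open triangles for 0 counts (drawn at 0.02) and a dashed line at 3 counts. Apoe lies between 302 and 705 CPM in every library, Lrp2 between 5.96 and 45.7 CPM with both Sox2-KD libraries on top, and Ttr and Afp lie at or under the line throughout.

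Lrp2, the large endocytic receptor megalin, was the member that rose in Sox2-KD E14 ESCs. It lies on chromosome 2 of GRCm38 (69424340 to 69586065, − strand, ENSMUSG00000027070.14). It had 167 and 182 counts in control, 831 and 626 in Sox2-KD, 276 and 154 in the hnRNPK-KD-labelled libraries and 102 and 181 in Cdk9-KD E14 ESCs. In CPM these were 9.40 and 10.4, 45.7 and 35.7, 16.2 and 8.96, and 5.96 and 10.7. Both Sox2-KD libraries were above all 6 other libraries, and the other 3 groups overlapped among themselves. Against control, the level was 40.7 ± 7.03 CPM (SD, n = 2) against 9.92 ± 0.723 CPM (SD, n = 2), a fold of 4.10 and a log2FC of 2.04 (standard error 0.33, 95% interval 1.31 to 2.76, adjusted p = 0.00948 in edgeR's quasi-likelihood fit, adjusted after Benjamini and Hochberg). The call rested on both control libraries: without control replicate 1 the log2FC was 1.95 (adjusted p = 0.073), and without control replicate 2 it was 2.11 (adjusted p = 0.063), by the same edgeR test with the lone control assumed to vary like the other groups. Lrp2 was also higher in Sox2-KD E14 ESCs than in the hnRNPK-KD-labelled libraries (log2FC 1.69, interval 0.98 to 2.41, adjusted p = 0.0167) and than in Cdk9-KD E14 ESCs (log2FC 2.29, interval 1.55 to 3.02, adjusted p = 0.0032). In the order of mean levels, Sox2-KD came first and differed from its neighbour, the hnRNPK-KD-labelled libraries (12.6 ± 5.10 CPM, SD, n = 2). The latter did not pass the test against control (log2FC 0.34, interval -0.38 to 1.06, adjusted p = 0.871), nor did Cdk9-KD (8.33 ± 3.36 CPM, SD, n = 2, log2FC -0.25, interval -0.98 to 0.48, adjusted p = 0.856). With 1 Sox2-KD replicate left out, the difference from the hnRNPK-KD-labelled libraries was 1.49 (adjusted p = 0.057, without replicate 1) and 1.86 (adjusted p = 0.070, without replicate 2), and without replicate 2 of the hnRNPK-KD-labelled libraries it was 1.34 (adjusted p = 0.118).

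Cubilin and amnionless, which act with megalin, were measured at a few counts. Cubn (chromosome 2, 13276338 to 13491813, − strand) had 7 and 5 counts in control, 12 and 8 in Sox2-KD, 2 and 3 in the hnRNPK-KD-labelled libraries and 2 and 1 in Cdk9-KD E14 ESCs. Both Sox2-KD libraries were above all others, and both Cdk9-KD libraries and both libraries labelled hnRNPK-KD were at or under the floor. The ratio of summed counts, scaled to library size, was 1.64 for Sox2-KD against control (95% exact interval 0.765 to 3.69, 20 against 12 counts), 0.429 for the hnRNPK-KD-labelled libraries (0.118 to 1.31, 5 against 12 counts) and 0.259 for Cdk9-KD (0.0469 to 0.959, 3 against 12 counts). These intervals cover counting error only and not the spread between replicates, and in a fit without a filter Cubn had a log2FC of 0.67 in Sox2-KD (adjusted p = 0.769). Cubn shares 368 exon bases with Gm13270 on the opposite strand (at most 8 counts in a library), and since the strand setting of the counting is not given, the counts of Cubn are uncertain. Amn (chromosome 12, 111271095 to 111276426, + strand) was at 0.676 and 0.802 CPM in control, 0.989 and 1.65 CPM in Sox2-KD, 0.586 and 0.407 CPM in the hnRNPK-KD-labelled libraries and 0.876 and 0.532 CPM in Cdk9-KD E14 ESCs. Both Sox2-KD libraries were again above the other 6, with 18 and 29 counts against 7 to 15. The differences did not pass the test against control (log2FC 0.83, interval -0.25 to 1.92, adjusted p = 0.400) or against the hnRNPK-KD-labelled libraries (log2FC 1.40, interval 0.26 to 2.54, unadjusted p = 0.0208, adjusted p = 0.144, edgeR).

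The 3 apolipoproteins differed by orders of magnitude. Apoe, the lipid carrier apolipoprotein E (chromosome 7, 19696109 to 19699188, − strand), was at 444 and 384 CPM in control, 302 and 311 CPM in Sox2-KD, 403 and 432 CPM in the hnRNPK-KD-labelled libraries and 705 and 415 CPM in Cdk9-KD E14 ESCs. Both Sox2-KD libraries were below the other 6, and replicate 1 of Cdk9-KD was above all others. Against control, Apoe did not pass the test in Sox2-KD (306 ± 6.34 against 414 ± 42.6 CPM, SD, n = 2 each, log2FC -0.43, interval -0.91 to 0.04, adjusted p = 0.304) or in Cdk9-KD (560 ± 205 CPM, SD, n = 2, log2FC 0.44, interval -0.04 to 0.91, adjusted p = 0.515). Apoe was lower in Sox2-KD than in Cdk9-KD E14 ESCs (log2FC -0.87, interval -1.34 to -0.40, adjusted p = 0.0348, edgeR). That call was lost without Cdk9-KD replicate 1, where the log2FC was -0.42 (adjusted p = 0.157), and in 4 other alternatives, where it was between -0.80 and -0.89. Apob, the structural protein of very low density and low density lipoproteins (chromosome 12, 7977648 to 8016835, + strand), had 15 and 4 counts in control, 8 and 4 in Sox2-KD, 20 and 93 in the hnRNPK-KD-labelled libraries and 3 and 6 in Cdk9-KD E14 ESCs. A single library, replicate 2 of the hnRNPK-KD-labelled pair, stood far above the rest at 5.41 CPM, and it is the one in which Hnrnpk mRNA was not lower. Against control this gave a log2FC of 2.60 (interval 0.90 to 4.30, unadjusted p = 0.0064, adjusted p = 0.457, edgeR), which was not called. Apob was lower in Sox2-KD than in the hnRNPK-KD-labelled libraries (log2FC -3.27, interval -5.07 to -1.47, adjusted p = 0.0415, edgeR). Without that library the log2FC was -1.77 and the call was lost (adjusted p = 0.365), and it was lost too without replicate 1 of Sox2-KD (log2FC -3.82) and without its replicate 2 (log2FC -2.89). Apoa1, the main protein of high density lipoprotein (chromosome 9, 46228580 to 46230466, + strand), had 5 counts in replicate 2 of Sox2-KD, 2 and 1 counts in Cdk9-KD and 0 in the other 5 libraries, which does not allow a fold.

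The plasma carriers were at or near the floor. Rbp4, the retinol carrier (chromosome 19, 38116629 to 38125281, − strand), had 8 and 11 counts in control, 2 and 5 in Sox2-KD, 6 and 12 in the hnRNPK-KD-labelled libraries and 7 and 4 in Cdk9-KD E14 ESCs. In CPM these were 0.450 and 0.630, 0.110 and 0.285, 0.352 and 0.698, and 0.409 and 0.237. Both Sox2-KD libraries were below both control libraries and overlapped with Cdk9-KD. The difference from control did not pass the test (log2FC -1.43, interval -3.0 to 0.15, adjusted p = 0.313, edgeR), nor did those of the hnRNPK-KD-labelled libraries (log2FC -0.04, adjusted p = 0.994) and of Cdk9-KD (log2FC -0.73, adjusted p = 0.762). Ttr, the carrier of thyroxine that also binds Rbp4 (chromosome 18, 20665280 to 20674321, + strand), had 1 count in replicate 2 of Cdk9-KD and 0 elsewhere. Afp, the main serum protein of the fetus (chromosome 5, 90490737 to 90508907, + strand), had 1 count in control replicate 2, 1 in Sox2-KD replicate 2, 3 in Cdk9-KD replicate 1 and 0 elsewhere. Differences in Ttr and Afp were not detectable at this depth.

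Across the comparisons, 1 of the 5 tested members was called differentially expressed (DE) in Sox2-KD against control, where 4.32% of all 16504 genes were called (713 genes, adjusted p under 0.05 and absolute log2FC over 0.6). The libraries did not overlap between these groups for 4 of the 5, with Lrp2 and Amn above control and Apoe and Rbp4 below, and 53.3% of all genes tested did not overlap either. The median log2FC of the 5 was -0.43, against 0.02 over all genes tested. In the hnRNPK-KD-labelled libraries, 0 of 5 members were called by edgeR, as were 0 of 16504 genes (0%). There 1 member, Apob, and 1325 genes had an unadjusted p under 0.05, and DESeq2 called 0 members and 83 genes. In Cdk9-KD, 0 of 5 members were called where 0.139% of all genes were (23 genes), no member had an unadjusted p under 0.05, and DESeq2 called 0 members and 222 genes. Between Sox2-KD and the hnRNPK-KD-labelled libraries, 2 of 5 members were called where 5.9% of all genes were, and between Sox2-KD and Cdk9-KD 2 of 5 where 7.33% were. With library totals in place of TMM, 78.3% of the calls between Sox2-KD and the hnRNPK-KD-labelled libraries were higher in Sox2-KD, against 66.9% with TMM, and the median log2FC of all genes moved by 0.11. These comparisons share the Sox2-KD or the control libraries. Since the members and the lists below were chosen with earlier results known, their called shares describe them and test no enrichment. An exact permutation test of single genes in 2 against 2 libraries cannot give a p below 0.333, so the tests rest on the spread shared over all groups.

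**Figure D2:**
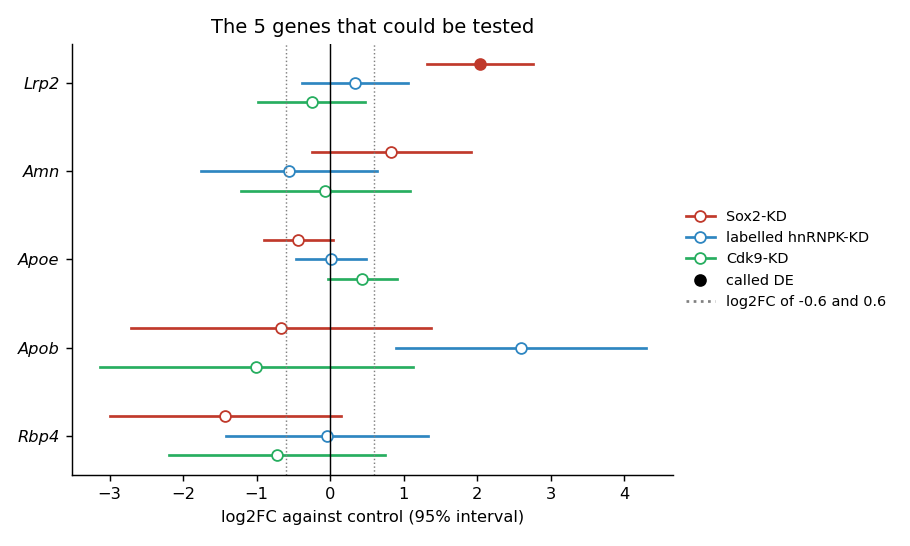
Log2FC against control with 95% intervals for the 5 tested genes in Sox2-KD, the hnRNPK-KD-labelled libraries and Cdk9-KD, with a filled point for a gene called DE and dotted lines at log2FC of -0.6 and 0.6. Lrp2 in Sox2-KD (2.04) is the filled point, and the intervals of Apob and Rbp4 are the widest.

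The proteins that work with megalin were examined as a list of 15 endocytic receptors and adaptors, all of which were tested. In Sox2-KD against control, 2 were higher, 0 lower and 13 not called, where 4.32% of all genes were called. Their median log2FC was 0.31, against 0.02 over all genes. Dab2, the clathrin adaptor that binds the tail of megalin, had 12 and 15 counts in control, 637 and 950 in Sox2-KD, 8 and 11 in the hnRNPK-KD-labelled libraries and 12 and 4 in Cdk9-KD E14 ESCs. Both Sox2-KD libraries were thus far above the other 6 (log2FC 5.85, standard error 0.40, adjusted p = 0.000187, edgeR), and the call held in all 15 alternatives, at 5.50 to 6.12 with 1 library left out. Lrpap1, the chaperone of megalin in the endoplasmic reticulum, was at 118 and 121 CPM in control and at 176 and 201 CPM in Sox2-KD (log2FC 0.66, standard error 0.15, adjusted p = 0.0346), a call that was lost when any 1 of the 4 libraries compared was left out (log2FC 0.55 to 0.74). Lrp1, a large endocytic receptor related to megalin, did not pass the test in Sox2-KD (log2FC 0.70, adjusted p = 0.125). In the hnRNPK-KD-labelled libraries and in Cdk9-KD, 0 of 15 were called against control, where 0% and 0.139% of all genes were. Between Sox2-KD and the hnRNPK-KD-labelled libraries, 5 were higher and 0 lower in Sox2-KD, where 5.9% of all genes were called. They were Dab2, the Fc receptor Fcgrt (fold 7.98, adjusted p = 0.0072), Gipc1 (log2FC 0.89), Scarb1 (log2FC 0.79) and Myo6 (log2FC 0.69). Against control, the log2FC of Fcgrt, Gipc1, Scarb1 and Myo6 was 0.99, 0.31, 0.21 and 0.17 in Sox2-KD, none called. In the hnRNPK-KD-labelled libraries it was -2.01, -0.58, -0.58 and -0.53 against control, none called either. Between Sox2-KD and Cdk9-KD 3 were higher, namely Dab2, Fcgrt (fold 3.99) and Lrpap1 (log2FC 0.65). Apart from that of Dab2, each of these calls between knockdowns was lost when Sox2-KD replicate 2 was left out. There the log2FC was 2.76 for Fcgrt, 0.62 for Gipc1, 0.65 for Scarb1 and 0.58 for Myo6 against the hnRNPK-KD-labelled libraries, and 1.76 for Fcgrt and 0.54 for Lrpap1 against Cdk9-KD. The same calls were lost without replicate 2 of the group compared, the hnRNPK-KD-labelled libraries or Cdk9-KD. Against the hnRNPK-KD-labelled libraries, Scarb1 and Myo6 each lost the call in 6 of the 11 alternatives counted, 4 of them with 1 library left out. Gipc1 lost it in 4 of 11, and leaving out either control library also cost calls in this comparison.

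**Figure D3:**
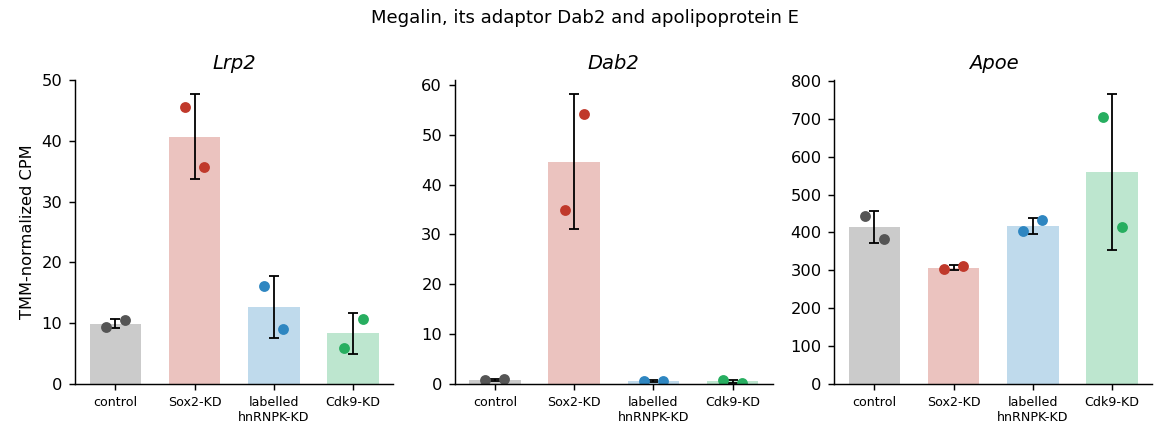
TMM-normalized CPM of Lrp2, Dab2 and Apoe in the 4 groups, with 1 point per library, bars for the mean and whiskers for the SD (n = 2), each panel with its own axis from 0. The Sox2-KD libraries lie above all others for Lrp2 (45.7 and 35.7 CPM) and Dab2 (35.0 and 54.2 CPM) and below all others for Apoe (302 and 311 CPM).

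Of 16 further genes of lipoprotein assembly and plasma secretion, 9 were at or under 3 counts in every library, among them Alb (albumin), the fibrinogen chains Fga and Fgb, and Apoa2, Apoa4, Apoc2, Apoc3, Apoh and Vtn. Of the 6 tested, 0 were called in Sox2-KD against control (median log2FC -0.07) and 0 in the other knockdowns against control. Over all genes, 4.32% were called in Sox2-KD, 0% in the hnRNPK-KD-labelled libraries and 0.139% in Cdk9-KD. Apoc1, which lies in the gene cluster of Apoe, was at 24.9 and 23.5 CPM in control, 27.1 and 37.7 CPM in Sox2-KD, 19.1 and 12.3 CPM in the hnRNPK-KD-labelled libraries and 18.6 and 13.5 CPM in Cdk9-KD E14 ESCs. It was higher in Sox2-KD than in the hnRNPK-KD-labelled libraries (log2FC 1.04, adjusted p = 0.0418) and than in Cdk9-KD (log2FC 1.01, adjusted p = 0.0412), whereas Apoe was lower in Sox2-KD than in Cdk9-KD. Apom, a carrier of sphingosine 1-phosphate in high density lipoprotein, was higher in Sox2-KD in both of these comparisons too (log2FC 1.78 and 1.84). It had 71 and 105 counts in control and 81 and 133 in Sox2-KD, which overlapped. The hnRNPK-KD-labelled libraries (27 and 33 counts) and Cdk9-KD (36 and 21 counts) were below both control libraries. The log2FC of Apom against control was 0.27 in Sox2-KD, -1.51 in the hnRNPK-KD-labelled libraries and -1.58 in Cdk9-KD, none called. The calls of Apoc1 and Apom were lost without Sox2-KD replicate 2, where the log2FC of Apom was 1.34 and 1.41. They were lost too without replicate 2 of the group compared, the hnRNPK-KD-labelled libraries or Cdk9-KD. Without replicate 1 of the group compared, Apom lost its call against the hnRNPK-KD-labelled libraries and Apoc1 its call against Cdk9-KD. Leaving out either control library also cost a call in both comparisons. With 1 library left out, the log2FC of Apoc1 was 0.77 to 1.39 and 0.75 to 1.28.

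Markers of the cells that could carry these genes were examined in the same fit, from lists also chosen with earlier results of these data known. Over all genes tested, 4.32% were called in Sox2-KD against control, 5.9% against the hnRNPK-KD-labelled libraries and 7.33% against Cdk9-KD. Of 13 visceral endoderm regulators, 8 were tested and Gata6 alone was higher in Sox2-KD than in control, with 49 and 68 counts against 4 and 5 (log2FC 3.65, adjusted p = 0.0111, edgeR). The call of Gata6 was lost without either control library or Sox2-KD replicate 2 (log2FC 3.47, 3.82 and 3.36). The other 7 were not called, among them Hnf4a, which had 172 and 169 counts in control, 123 and 385 in Sox2-KD, 224 and 508 in the hnRNPK-KD-labelled libraries and 210 and 153 in Cdk9-KD. The summed level of this list was 22.1 and 39.4 CPM in Sox2-KD and 21.1 to 44.1 CPM in the other 6 libraries. Most of that sum was Hnf4a (6.76 and 22.0 CPM in Sox2-KD) and Hhex (7.03 and 9.59 CPM), so it says little of the low-count regulators. Sox17 (17 and 10 counts against 2 and 4) and Sox7 (4 and 6 against 0 and 0) were also above both control libraries. Foxa1 (1 and 1 counts against 4 and 4) and Bmp2 were below both. Of all genes tested, 53.3% did not overlap between these groups. Cer1 was at or under the floor in all 8 libraries, and Foxa2 had at most 6 counts. Between Sox2-KD and the hnRNPK-KD-labelled libraries, 1 of the 8 regulators was higher in Sox2-KD, 2 were lower and 5 were not called. Gata6 was higher (log2FC 3.20, adjusted p = 0.0145), and the signalling ligand Bmp2 was lower, with 6 and 1 counts in Sox2-KD, 45 and 37 in the hnRNPK-KD-labelled libraries and 11 and 8 in control (log2FC -3.57, adjusted p = 0.0108). Both calls were lost without Sox2-KD replicate 2 (log2FC 2.91 and -2.84) and without hnRNPK-KD replicate 2 (log2FC 2.48 and -3.70). The homeobox regulator Otx2 was lower too (log2FC -1.62, adjusted p = 0.0448), with 34 and 21 counts in Sox2-KD, 54 and 108 in the hnRNPK-KD-labelled libraries and 27 and 31 in control, a call lost in 11 of 15 alternatives (log2FC -1.03 to -2.03 with 1 library left out). Between Sox2-KD and Cdk9-KD, 2 were higher, 1 was lower and 5 were not called. Gata6 had 49 and 68 counts against 2 and 2 (adjusted p = 0.00344), a call kept in all 15 alternatives, and the regulator Sox17 had 17 and 10 against 1 and 0 (adjusted p = 0.0417), a call lost in 9 of 15. Otx2 was lower, with 105 and 94 counts in Cdk9-KD (log2FC -1.92, adjusted p = 0.0187), which was lost without Sox2-KD replicate 2 or either Cdk9-KD library (adjusted p = 0.158, 0.0657 and 0.0583). Of 12 parietal endoderm markers, Sparc was higher in Sox2-KD than in control (log2FC 1.42), Lama1 (log2FC -1.01) and Nid1 (log2FC -0.90) were lower and 9 were not called. Lama1 and Nid1 lost the call without either control library or Sox2-KD replicate 1, and Nid1 also without Sox2-KD replicate 2. Summed parietal endoderm levels were 1332 and 1546 CPM in Sox2-KD and 1419 to 1622 CPM in the others. Lamc1 was the largest part of these sums (628 and 656 CPM in Sox2-KD, 703 and 751 CPM in control). Of the markers not called, Plat, Col4a1, Col4a2 and Pdgfra were above both control libraries in Sox2-KD, and Lamb1 and Lamc1 were below both. Of 12 trophectoderm markers, 9 were tested and 6 were higher in Sox2-KD than in control (median log2FC 2.11). These were the keratins Krt18 (log2FC 4.34), Krt7 (log2FC 3.81) and Krt8 (log2FC 2.97) and the regulators Gata3 (log2FC 3.48), Esx1 (log2FC 2.11) and Gata2 (log2FC 1.86). The number higher was 3 without control replicate 1, 2 without control replicate 2, 4 without Sox2-KD replicate 1 and 2 without its replicate 2, while Krt8 and Krt18 were called in each case. The summed trophectoderm level was 197 and 333 CPM in Sox2-KD and 69.5 to 127 CPM in the other 6 libraries. Most of the Sox2-KD sum was Krt8 (97.1 and 182 CPM, against 18.4 and 17.4 CPM in control) and Krt18 (41.4 and 82.7 CPM, against 3.27 and 2.86 CPM). Elf5 was at or under the floor in all 8. Cdx2 was at 6.10 and 6.22 CPM in Sox2-KD against 19.8 and 35.1 CPM in control, and Tfap2c at 28.7 and 32.5 CPM against 43.4 and 43.0 CPM, neither called. The 6 higher markers moved with the same 2 libraries as Lrp2, and their part in the level of Lrp2 was not tested. Of the 10 ESC markers Sox2 alone was called, lower, in Sox2-KD (log2FC -0.64, adjusted p = 0.0479), and that call was lost in 10 of 15 alternatives, among them leaving out any 1 of the Sox2-KD or control libraries (log2FC -0.46 to -0.83). Of the other lists, 0 of 2 hepatocyte and 0 of 2 macrophage markers tested were called, and 1 of 5 fibroblast markers, Lum, was higher (23 and 13 counts against 0 and 1), which was lost without any 1 of these 4 libraries. In the hnRNPK-KD-labelled libraries no marker of any list was called against control, as was none of all 16504 genes. In Cdk9-KD, where 0.139% of all genes were called, only Tfap2c was, lower (log2FC -2.04, adjusted p = 0.0416). That call was lost without either control library or Cdk9-KD replicate 2. Between Sox2-KD and the hnRNPK-KD-labelled libraries, 2 parietal endoderm and 5 trophectoderm markers were higher in Sox2-KD and 1 of each was lower, namely Lama1 and Cdx2. Between Sox2-KD and Cdk9-KD, 3 and 7 were higher, and Lama1, Nid1 and Cdx2 were lower. With 1 library left out, the trophectoderm markers that were higher numbered 3 to 6 and 4 to 7, and the parietal endoderm markers 0 to 3 in both comparisons.

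**Figure D4:**
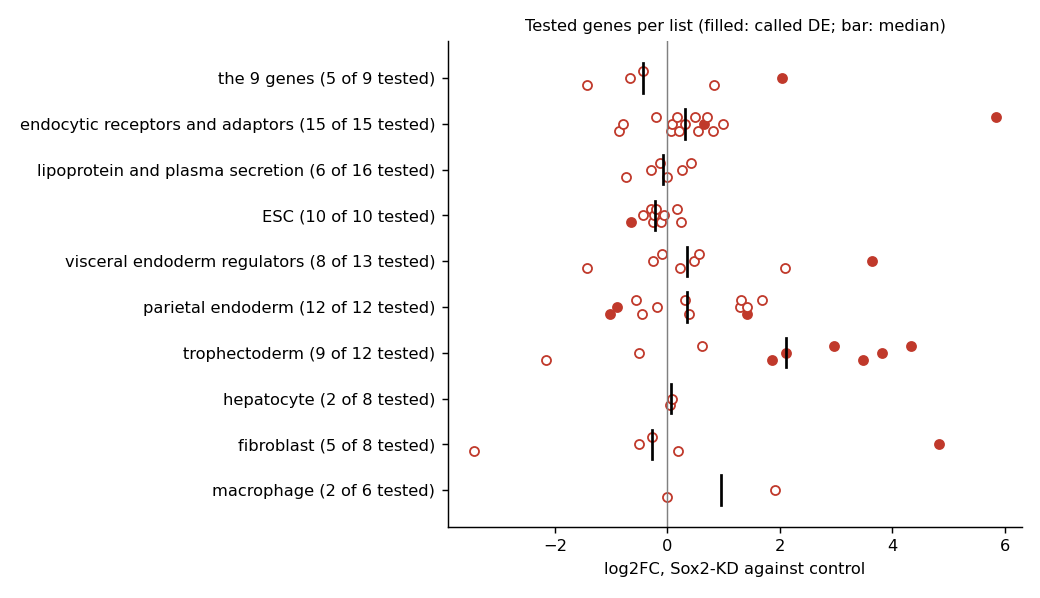
Log2FC of Sox2-KD against control for the tested genes of each list, with 1 point per gene, filled where called DE, and a bar at the median of the list. The 9 genes have 1 filled point (Lrp2), the endocytic receptors and adaptors have 2 (Dab2 at 5.85 and Lrpap1 at 0.66), and the trophectoderm list has 6 with its median at 2.11.

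The genes whose log2 CPM followed a member most closely over the 8 libraries were looked up among 16503 others, as a description, since all share the same libraries and groups. For Lrp2 these were Scrn1 (Pearson's r 0.995), Gm30363 (r 0.977) and Tmem184b (r 0.976). Scrn1 was at 15.8 and 17.6 CPM in control, 41.9 and 39.7 CPM in Sox2-KD, 21.6 and 16.0 CPM in the hnRNPK-KD-labelled libraries and 11.6 and 16.1 CPM in Cdk9-KD, so that it too was highest in Sox2-KD. For Amn they were Fes (r 0.992), Vil1 (r 0.990), which encodes villin of microvilli, and Carhsp1 (r 0.990). Vil1 had 21 and 26 counts in control, 35 and 63 in Sox2-KD, 15 and 10 in the hnRNPK-KD-labelled libraries and 26 and 17 in Cdk9-KD. For Apob they were Gm45133, Ppp4r4 and Zfp180 (r 0.919 to 0.914), and for Rbp4 Gm5910, Nipal2 and Gm9855 (r 0.960 to 0.944), both members at counts where 1 library weighs heavily.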

How the data were processed

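The authors sequenced polyadenylated RNA as paired reads, trimmed them with Trimmomatic, aligned them with STAR (2.7.9a in the submitters' processing notes) to GENCODE vM23 on mm10 and counted with featureCounts 2.0.1. The authors deposited raw counts per gene in 8 libraries, neither normalized nor pooled. Settings for strand and shared reads are not given in the sources used here. Symbols came from GENCODE vM21 (55154 of 55335 identifiers), with all 9 members matched to the same identifier version. The members and lists were chosen with earlier results of these data known.

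edgeR's filterByExpr (a minimum count of 10 and a total of 15) left 16504 genes, which were tested with edgeR 4.0.16 (R 4.3.3), TMM, 1 fit over 8 libraries with a group term, a quasi-likelihood test and p-values adjusted by Benjamini-Hochberg over all tested genes. DE was called where the adjusted p was under 0.05 and the absolute log2FC exceeded 0.6, after the study's methods. Genes named beside the members were the targeted genes, the up to 5 genes with the largest absolute log2FC among those called in each list, and the 3 genes most correlated with each tested member whose group means spanned over 1 on the log2 scale. Apoc1, Apom, Lrp1, Hnf4a, Foxa2, Cdx2 and, as the sixth of its list, Gata2 were named after their values were seen. So were Hhex, Sox7, Foxa1, Plat, Col4a1, Col4a2, Pdgfra, Lamb1 and Lamc1. The script was tested on simulated counts. The alternatives were DESeq2 1.42.0, its size factors in edgeR, library totals, no filter, the likelihood ratio test, only the 4 libraries compared, a replicate block and leaving out each library. Figures used matplotlib 3.10.9 in Python 3.11.15.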

Additional observations from a re-analysis of the deposited data

How the results depend on the processing

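Of 368 log2FC values of the tested members under the alternatives, 337 kept their direction and their side of the threshold, 15 lost a call and 16 turned direction. Another 386 values covered the list genes that were called and the targeted genes, without the cell type markers compared directly between knockdowns. Of these, 82 lost a call, 3 gained one (Cdk9) and 1 turned (Hnrnpk, between -0.70 and 0.031 without 1 library). The cause of these changes was not tested. With the likelihood ratio test, all genes called numbered 1350 in Sox2-KD, 87 in the hnRNPK-KD-labelled libraries and 279 in Cdk9-KD against control, and 1690 and 1869 between Sox2-KD and the hnRNPK-KD-labelled libraries and Cdk9-KD. DESeq2 called 83 genes in the hnRNPK-KD-labelled libraries and 222 in Cdk9-KD, and without a filter 1 gene was called in the former. Leaving out 1 library gave 144 to 840 genes in Sox2-KD, 0 to 1 in the hnRNPK-KD-labelled libraries and 0 to 33 in Cdk9-KD against control, 90 to 1100 between Sox2-KD and the hnRNPK-KD-labelled libraries and 337 to 1286 between Sox2-KD and Cdk9-KD. Members called were 0 to 1 in Sox2-KD against control (0 without either control library), 0 to 2 against the hnRNPK-KD-labelled libraries and 1 to 2 against Cdk9-KD. Only 1 member was called against the hnRNPK-KD-labelled libraries with only the 4 libraries compared, and 1 against Cdk9-KD with library totals or with only the 4 libraries compared.

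The replicate number as a block gave 15 genes in Cdk9-KD against control and 1 member between Sox2-KD and the hnRNPK-KD-labelled libraries, where Apob was lost. Deviations of same-numbered libraries correlated between -0.22 and 0.21. The labels do not say whether libraries of the same number were prepared together, and these correlations cannot decide it.

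Directions turned in differences that were not called. Leaving out 1 library gave a log2FC of Apob between -1.32 and 0.52 in Sox2-KD and between -1.68 and 0.17 in Cdk9-KD against control, the highest without control replicate 1, and between -0.22 and 0.90 for Sox2-KD against Cdk9-KD. In the same way Lrp2 lay between -0.16 and 0.68, Rbp4 between -0.63 and 0.36 and Apoe between -0.10 and 0.10 in the hnRNPK-KD-labelled libraries, with -0.028 for Apoe under library totals and -0.0074 with only the 4 libraries compared. In Cdk9-KD, Lrp2 lay between -0.73 and 0.078, Amn between -0.50 and 0.24 and Apoe between -0.028 and 0.77. With 2 libraries a group and members at a few counts, depth limits what can be seen of Cubn, Apoa1, Apob, Ttr, Afp and Rbp4.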
